A study of Arabidopsis thaliana with 24 samples.

Results

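The transcripts described here were less abundant in rosettes of sid2 plants than of Col-0 plants, and also less abundant in mil4 sid2 plants than in mil4 plants, while mil4 and Col-0 were close to each other. They are 104 of the 22746 Affymetrix ATH1 probe sets of Arabidopsis thaliana that were analysed. A probe set is a group of probes read as a single value for a transcript, and its level is given throughout as a log2 level, log2(intensity + 16), on which a difference of 1 is a doubling. Members were chosen by group means of this level. A member had a highest group mean of at least 7, a difference of -0.6 or lower between sid2 and Col with water, a difference of -0.6 or lower between mil4 sid2 and mil4 with water, a mil4 mean within 0.5 of the Col mean with water, and a rise of less than 1.5 with BTH in Col. Because these values chose the members, the differences in the 4 contrasts of the rule are given as a description and carry no test.

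The series held 24 arrays in 6 groups of 4: mil4 sid2 with water, sid2 with water, mil4 with BTH, mil4 with water, Col with BTH and Col with water. All plants were 4 weeks old, had grown at 22 °C with 14 h of light, and had received a spray of 300 µM BTH or of water 2 days before the rosettes were taken, and each array received RNA of a rosette sample that the labels call a biological replicate. The alleles of mil4 and sid2, the number of plants in a replicate and whether replicates were grown together are unstated in the labels, so p-values measure the spread between these samples. A rosette holds many cell types, and fewer cells of a type cannot be told apart from less RNA per cell.

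Salicylic acid is a plant hormone that switches on defence against biotrophic pathogens such as powdery mildew. SID2 encodes the chloroplast isochorismate synthase ICS1, through which most pathogen-induced salicylic acid is made, and a sid2 plant accumulates little of it. Benzothiadiazole (BTH) is a synthetic analogue that activates the same signalling downstream of hormone synthesis, so it can act in plants that make no salicylic acid. The title of the series names MIL4, MILDEW-INDUCED LESIONS 4, as a regulator of this defence response.

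The hybridization day must be read with every difference that involves sid2. All 8 sid2 and mil4 sid2 arrays were hybridized on 1 day, 14 days after the last of the 3 days that held all 16 Col and mil4 arrays, so the sid2 genotype and the hybridization day cannot be told apart. The 3′ to 5′ signal ratio of the GAPDH control, a measure of RNA and labelling quality, averaged 1.125 ± 0.051 on that day (SD, range 1.079 to 1.227, n = 8) and 0.920 ± 0.231 on the other 3 days (SD, range 0.651 to 1.648, n = 16), where 14 of 16 arrays lay below 1.079. The same ratio of the ubiquitin control averaged 2.530 ± 0.235 on that day and 2.156 ± 0.449 on the others, and the share of probe sets with an intensity under 16 averaged 14.913% ± 2.287 and 16.826% ± 0.714 (SD). The bioB hybridization spike had a log2 level of 8.25 ± 0.39 on that day and 8.66 ± 0.40 on the others (SD). Median intensity lay between 151.85 and 185.0 on that day and between 152.25 and 175.7 on the others. Replicate 1 of sid2 stood apart, with the highest median (185.0) and the lowest share under 16 (9.610%). Without it the rule chose 116 probe sets, 96 of them members, and the 104 members had a median sid2 difference of -0.86. The part that these values play in the differences was not tested. No probe set carries the name of ICS1 or MIL4 in the annotation used here, so neither mutation was checked by its own transcript. An unnamed probe set, a member or not, may still measure either gene.

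The limit on sid2 against Col left 1140 probe sets among the 13838 bright ones, those with a highest group mean of at least 7. The limit on mil4 sid2 against mil4 left 655, and 238 passed both. Requiring mil4 to be close to Col left 107, and the limit on BTH in Col removed 3 of these, among them AT3G28540 with a BTH difference of 1.92. The mirror image of the rule, with both sid2 differences at 0.6 or higher and the other limits kept, held 60 probe sets. The named members nearest the limit were AT2G04570, a GDSL-type lipase gene, and AT4G23610, a gene of the hydroxyproline-rich glycoprotein family, whose weaker sid2 differences were -0.603 and -0.606. Just outside it lay AT5G61820, with -0.592, and APS3, an ATP sulfurylase gene of sulphate assimilation, with -0.589. Of the 104 members, 54 carry a single gene name in the platform annotation, 1 carries several and 49 are unnamed here.

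**Figure D1:**
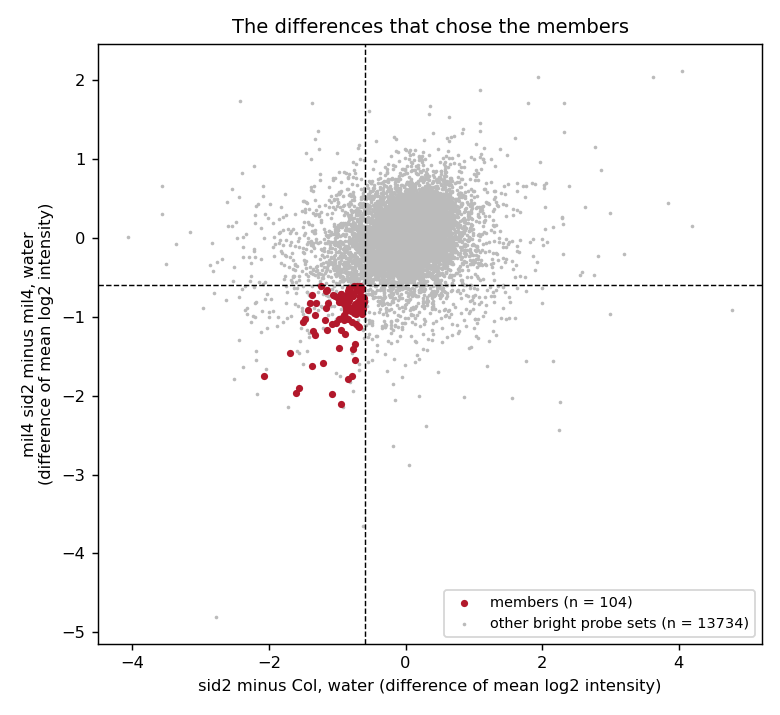
Difference between sid2 and Col (horizontal axis) against the difference between mil4 sid2 and mil4 (vertical axis), both with water and on the log2 scale, for the 13838 bright probe sets; members are coloured and the lines mark the limits of -0.6. The members lie beyond both limits, where the other probe sets failed another part of the rule, and they reach -2.06 on the horizontal and -2.11 on the vertical axis.

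Members were lower by a median of 0.83 in sid2 than in Col and by a median of 0.86 in mil4 sid2 than in mil4, on the log2 scale, against medians of 0.03 and 0.05 for sid2 minus Col and mil4 sid2 minus mil4 over the bright probe sets. In each of these comparisons the 4 arrays of the sid2 genotype lay wholly below the 4 others for 89 of the 104 members (85.58%), against 12.82% of bright probe sets in sid2 and Col and 8.69% in mil4 sid2 and mil4. These shares follow from how members were chosen. Averaged over the members after centring each on its mean over all arrays, the level was -0.77 ± 0.06 in mil4 sid2, -0.51 ± 0.04 in sid2, 0.25 ± 0.06 in mil4 with BTH, 0.19 ± 0.12 in mil4 with water, 0.44 ± 0.09 in Col with BTH and 0.40 ± 0.11 in Col with water (SD, n = 4 each). The 8 arrays of sid2 and mil4 sid2 all lay below the other 16, and BTH did not separate the arrays of either genotype that received it. The highest group mean had a median of 9.42 over the members and of 9.11 over the bright probe sets. The median spread within groups was 0.243 for members and 0.208 for bright probe sets (SD).

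**Figure D2:**
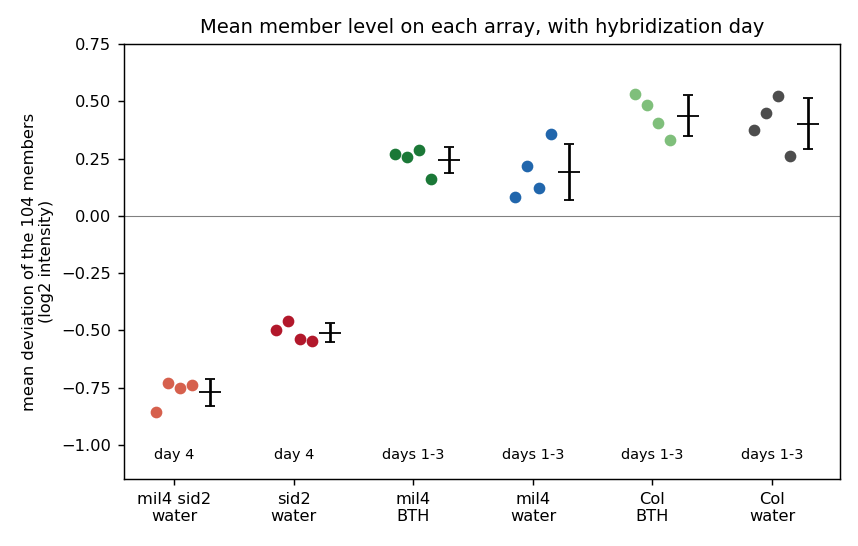
Mean level of the 104 members on each of the 24 arrays (points), each member centred on its mean over all arrays, on the log2 scale, with the group mean and SD (line and bar). The mil4 sid2 and sid2 arrays lie between -0.86 and -0.46, and all other arrays lie above 0.

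Replicates that the rule had not seen gave the same direction. When the rule was applied to 3 replicates of each group in turn, it chose 99 to 123 probe sets, of which 66 to 83 are members. In the array numbers left out, those probe sets had a median difference of -0.88 to -0.65 between sid2 and Col and of -0.88 to -0.56 between mil4 sid2 and mil4. Both differences were below 0 for 83.7% to 90.2% of them, against 24.4% to 26.7% of bright probe sets, and both were past the limit of -0.6 for 33.3% to 49.5%. The left-out sid2 and mil4 sid2 arrays were hybridized on the same separate day as the others of their groups, so they bear on the spread between replicates and not on that day. Arrays are also washed and stained in numbered modules of a fluidics station. Within module 3, the 2 sid2 arrays and the 1 Col water array differed by a median of -0.82, with 100 of 104 members below 0, and within module 1 the 2 mil4 sid2 and 2 mil4 water arrays differed by a median of -0.80, with 103 of 104 below 0. The rule used these arrays, so the within-module values are a description and no separate check.

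Of the 54 named members, 37 were placed in 7 groups by known role. The role groups were drawn up with the members known, so the order of their medians is a description.

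The first group comprised 9 genes of immune recognition and signalling, and they were lower by a median of 0.83 in sid2 than in Col and of 0.92 in mil4 sid2 than in mil4. AT5G03350 encodes a legume lectin-like protein known to be induced by salicylic acid. Its log2 levels were 11.14, 11.17, 11.27 and 11.41 in sid2, against 12.81, 12.54, 12.84 and 12.81 in Col with water. In mil4 sid2 they were 11.51, 11.53, 11.34 and 11.05, against 12.40, 12.52, 12.35 and 12.39 in mil4 with water. The arrays of the sid2 genotypes all lay more than 0.8 below those of the matching controls. With BTH the levels were 13.36, 13.55, 13.67 and 13.28 in mil4 and 13.95, 13.72, 14.05 and 14.18 in Col, above every water-sprayed array of all 4 genotypes.

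AT5G58120 encodes an intracellular immune receptor of the TIR type. It had log2 levels of 6.82, 7.37, 6.33 and 6.90 in sid2, against 8.21, 8.30, 8.75 and 7.58 in Col. In mil4 sid2 it had 6.73, 7.49, 7.0 and 7.19, against 8.18, 8.64, 7.98 and 8.30 in mil4. Neither pair of groups overlapped, although the highest sid2 array came within 0.21 of the lowest Col array. AT5G48490 encodes a lipid transfer protein closely related to DIR1, which acts in systemic acquired resistance. Its levels of 11.14, 11.14, 10.95 and 10.87 in sid2 lay below 11.82, 11.87, 11.67 and 11.86 in Col, and its levels of 9.78, 9.94, 9.90 and 10.02 in mil4 sid2 lay below 11.61, 11.50, 11.83 and 11.70 in mil4. The difference was -1.75 in the mil4 background and -0.78 in the Col background, and all mil4 sid2 arrays lay below all sid2 arrays.

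The other members of this group were kinases and a phosphatase. The kinase gene PTI1-4 had a mean log2 level of 9.26 ± 0.11 in sid2 and 10.02 ± 0.36 in Col, and 8.91 ± 0.27 in mil4 sid2 and 9.86 ± 0.11 in mil4 (SD, n = 4 each). AT3G03770, a leucine-rich repeat kinase gene, was lower by 1.40 in sid2 than in Col and by 0.82 in mil4 sid2 than in mil4. For the kinase genes AT2G40270, AT1G70740 and AT1G70250 the sid2 difference ran from -0.83 to -0.64 in the Col background and from -0.92 to -0.63 in the mil4 background. Of these, AT1G70250 was dim and its groups overlapped in both backgrounds. Its log2 levels were 5.42 to 6.39 in sid2 and 6.26 to 6.75 in Col. In mil4 sid2 they were 4.45 to 6.52, against 6.14 to 7.21 in mil4. AT3G16560, a gene of a type 2C protein phosphatase, had 7.58 ± 0.16 in sid2 and 8.73 ± 0.29 in Col, and 7.75 ± 0.21 in mil4 sid2 and 8.41 ± 0.16 in mil4.

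Genes of glucosinolate, glutathione and redox metabolism, together with the beta-glucosidase genes BGLU40 and BGLU44, formed a group of 7. The group was lower by a median of 0.89 in sid2 than in Col and of 0.79 in mil4 sid2 than in mil4. GTR1 encodes a plasma-membrane importer of glucosinolates, the sulphur-rich defence compounds of the cabbage family. It had log2 levels of 10, 9.34, 9.24 and 9.14 in sid2, against 10.32, 10.49, 10.74 and 10.50 in Col. In mil4 sid2 the levels were 8.92, 8.53, 8.65 and 8.58, against 10.57, 10.68, 10.51 and 10.87 in mil4. The mil4 sid2 arrays were the lowest of the series for GTR1, and its sid2 difference was -1.08 in the Col background and -1.98 in the mil4 background.

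AT2G25450 encodes a dioxygenase that modifies the side chain of aliphatic glucosinolates. Its log2 levels were 11.53, 11.59, 10.88 and 11.25 in sid2, against 12.19, 12.17, 12.37 and 12.10 in Col, and 11.02, 10.83, 10.93 and 10.67 in mil4 sid2, against 11.57, 11.86, 11.74 and 12.30 in mil4. BGLU40, a beta-glucosidase gene, had 8.49, 8.44, 8.21 and 8.10 in sid2, against 9.25, 9.45, 9.03 and 9.23 in Col. In mil4 sid2 BGLU40 had 7.89, 7.46, 7.92 and 7.75, against 8.98, 8.45, 8.51 and 9.15 in mil4. For both genes the groups were apart in each background. Among the rest, GR1, encoding a glutathione reductase, had 9.46 ± 0.06 in sid2 and 10.34 ± 0.03 in Col (SD, n = 4 each). The glutathione transferase gene GSTU20, the methionine sulphoxide reductase gene MSRB5 and the beta-glucosidase gene BGLU44 had sid2 differences between -0.75 and -0.65 in the Col background and between -0.79 and -0.61 in the mil4 background.

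The 4 membrane transporter genes were lower by a median of 1.06 in sid2 than in Col and of 1.0 in mil4 sid2 than in mil4. AT3G56200, of an amino acid transporter family, had log2 levels of 8.58, 8.93, 8.64 and 8.54 in sid2, against 9.71, 9.55, 10.25 and 9.49 in Col, and 8.36, 8.14, 8.50 and 8.45 in mil4 sid2, against 9.17, 9.58, 9.41 and 9.65 in mil4. AT3G26590, a gene of the MATE efflux family, had 5.55, 6.10, 5.80 and 6.20 in sid2, against 7.29, 7.54, 7.03 and 7.53 in Col, and 6.03, 6.55, 6.41 and 6.07 in mil4 sid2, against 7.16, 7.20, 6.98 and 7.35 in mil4. Neither gene showed an overlap between a sid2 genotype and its control. SWEET13, a sucrose exporter gene, was less even: its 8.40 in sid2 replicate 1 was as high as the Col arrays, which lay between 8.04 and 8.44, while the other 3 sid2 arrays lay between 6.82 and 7.32. In mil4 sid2 SWEET13 had 4.31 in replicate 1 and 6.31 to 6.69 in the others, against 7.55 to 7.91 in mil4. The MATE gene AT1G61890 had 8.63 ± 0.15 in sid2 and 9.67 ± 0.99 in Col (SD, n = 4 each), and the Col arrays spread from 8.74 to 10.97.

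The 8 genes of lipids and ester hydrolysis were lower by a median of 0.98 in sid2 than in Col and of 0.90 in mil4 sid2 than in mil4. The group holds the GDSL-type lipase gene AT1G28600, with log2 levels of 8.50, 9.26, 8.79 and 8.65 in sid2, against 10.23, 10.31, 10 and 10.13 in Col, and 8.24, 8.32, 8.25 and 8.32 in mil4 sid2, against 9.88, 9.89, 9.64 and 10.20 in mil4. AT5G11650, of the alpha/beta hydrolase family, had 7.80, 7.63, 7.96 and 7.75 in sid2, against 8.58, 8.87, 9.24 and 8.53 in Col, and 7.14, 7.12, 7.73 and 7.16 in mil4 sid2, against 8.20, 8.43, 8.11 and 8.69 in mil4. Both genes were lower on every sid2 and mil4 sid2 array than on any control array. AT1G68620, of the same hydrolase family, was dim, with 5.09, 4.96, 6.03 and 6.05 in sid2, against 7.55, 6.05, 6.69 and 7.11 in Col, and 5.40, 6.40, 6.25 and 6.11 in mil4 sid2, against 5.90, 7.14, 7.28 and 7.73 in mil4. Its groups touched or overlapped in both backgrounds.

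AT4G34150, encoding a protein with a calcium-binding C2 domain, had log2 levels of 10.45, 10.61, 10.86 and 10.63 in sid2, against 11.53, 11.67, 11.67 and 11.31 in Col, and 10.21, 10.56, 10.65 and 10.44 in mil4 sid2, against 11.30, 11.77, 11.16 and 11.76 in mil4, with no overlap. OPCL1, encoding a CoA ligase of jasmonate synthesis, was lower by 0.94 in sid2 than in Col and by 0.82 in mil4 sid2 than in mil4. AT1G67360, encoding a protein of lipid droplets, was lower by 1.13 in sid2 and by 0.83 in mil4 sid2. The GDSL-type genes AT3G05180 and AT2G04570 had sid2 differences between -0.78 and -0.60 over both backgrounds.

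The remaining 9 placed genes belong to 3 smaller groups. Of the 4 genes of the cell wall and of glycosyl transfer, AT2G41640, a glycosyltransferase gene of family 61, had log2 levels of 7.11, 6.25, 6.87 and 6.71 in sid2, against 8.12, 8.11, 8.88 and 7.72 in Col. In mil4 sid2 AT2G41640 had 6.42, 6.11, 6.74 and 7.56, against 7.30, 7.44, 7.95 and 8.23 in mil4, so that replicate 4 of mil4 sid2 overlapped the mil4 arrays. The aspartyl protease genes AT3G59080 and AT3G54400 were lower by 0.88 and 0.65 in sid2 than in Col and by 0.85 and 0.67 in mil4 sid2 than in mil4. The zinc finger and RING protein genes AT1G14580, AT3G52800 and AT2G37580 had sid2 differences between -0.85 and -0.62 in the Col background and between -0.82 and -0.79 in the mil4 background.

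A total of 17 named members were placed in no role group, and they include the member with the largest weaker sid2 difference among those named. This was AT1G65490, with log2 levels of 10.85, 10.56, 10.35 and 10.27 in sid2, against 11.80, 12.25, 12.45 and 11.75 in Col, and 9.43, 9.77, 9.72 and 9.89 in mil4 sid2, against 11.40, 11.29, 11.95 and 11.78 in mil4. AT2G28400 had 7.64, 7.19, 7.53 and 7.33 in sid2, against 8.68, 9.13, 9.37 and 7.84 in Col, and 7.53, 6.69, 7.48 and 7.01 in mil4 sid2, against 8.11, 8.69, 8.25 and 8.57 in mil4. Neither gene overlapped between the groups, and Col replicate 4 was the lowest Col array for both.

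**Figure D3:**
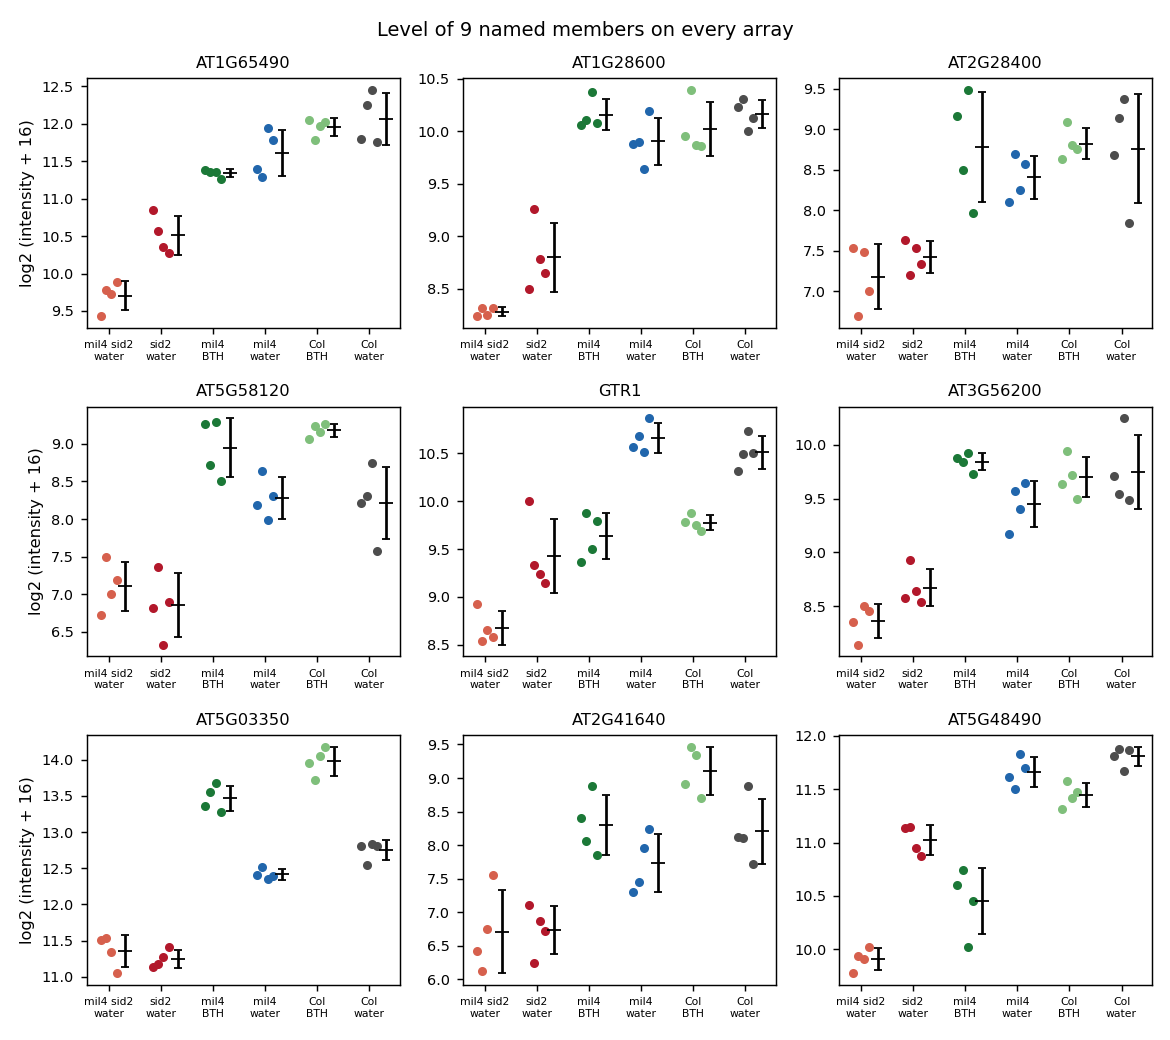
Log2 level, log2(intensity + 16), of 9 named members on each array (points), with group mean and SD (line and bar), in the 6 groups along the horizontal axis. The mil4 sid2 and sid2 points of AT1G65490, AT1G28600 and AT3G56200 lie below all other points, and for AT5G03350 the BTH points of mil4 and Col lie above the water points.

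Although the rule held mil4 within 0.5 of Col, 87 of the 104 members lay below Col in mil4 with water, with a median of -0.26 against -0.00 for bright probe sets. Among water-sprayed sid2 plants the median difference of mil4 sid2 and sid2 was likewise -0.26, with 80 of 104 below 0, against 0.01 for bright probe sets. After BTH the median difference of mil4 and Col was -0.24, with 76 of 104 below 0, against 0.00. All 3 differences were below 0 for 60 of the 104 members (57.7%), against 15.3% of bright probe sets. The first and the second of these differences rest on the water arrays that the rule compared, so only the difference after BTH was tested.

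After BTH, 22 of 104 members were lower in mil4 than in Col (21.2%, against a percent called lower of 1.82 over all probe sets and 2.95 over bright ones), and 2 were higher (1.92%, against 1.46 over all and 2.25 over bright ones). In either direction 3.29 percent of all probe sets were called. This was limma's moderated test with Benjamini-Hochberg adjustment over 22746 probe sets, at an adjusted p under 0.05, as in all tests below. The mil4 arrays with BTH entered the rule through the limit of 7 on the highest group mean alone. The Col arrays with BTH entered it there and as an upper limit on their rise. Some members, among them AT2G41380, reached 7 in mil4 with BTH alone (7.11, against 5.93 or lower in the other groups). This favours a higher level in mil4. AT1G59930 reached it in Col with BTH alone (7.09, against 6.91 in mil4 with BTH), which favours a lower level in mil4. The bright probe sets had the same limit of 7. AT5G22390 had log2 levels of 8.05, 8.16, 7.62 and 8.39 in mil4 and 9.46, 8.88, 9.30 and 9.33 in Col, a difference of -1.18 (SE 0.16) or 2.27-fold, with an adjusted p of 0.000232. The groups did not overlap. AT4G33666 had 9.96, 9.90, 9.61 and 10.02 in mil4 and 11.17, 10.51, 10.72 and 11.14 in Col, a difference of -1.01 (SE 0.17, adjusted p = 0.00175). AT5G48490, the DIR1-like gene, had 10.60, 10.74, 10.02 and 10.45 in mil4 and 11.31, 11.58, 11.41 and 11.47 in Col, a difference of -0.99 (SE 0.13, adjusted p = 0.000192). For all 3 genes every mil4 array was below every Col array.

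The phosphatase gene AT3G16560 had 8.23, 8.78, 7.95 and 8.69 in mil4 and 9.53, 9.20, 9.42 and 9.19 in Col (difference -0.92, SE 0.17, adjusted p = 0.00427), and AT2G39870 had 9.17, 9.29, 9.14 and 9.19 in mil4 and 9.73, 10.58, 10.36 and 9.95 in Col (difference -0.96, SE 0.17, adjusted p = 0.00234). Both were lower on all 4 mil4 arrays. BGLU40 had 8.24, 8.45, 7.78 and 8.45 in mil4 and 9.36, 8.83, 8.98 and 8.94 in Col (difference -0.80, SE 0.18, adjusted p = 0.0131), but the call was lost without Col replicate 1 (adjusted p = 0.0634) and without mil4 replicate 3 (adjusted p = 0.0648), in a range of 0.00243 to 0.093 over the alternatives. The glutathione transferase gene GSTU20, the glycosyltransferase gene AT1G12990 and the lectin gene AT5G03350 were also lower in mil4, by 0.58, 0.60 and 0.51. The calls of AT1G15290 (difference -0.63, adjusted p = 0.0338) and AT1G65490 (difference -0.62, adjusted p = 0.0461) were lost in 5 and in 13 of 19 alternatives, with adjusted p up to 0.199 and 0.663. By role, the lower members included 3 of the 9 immune and signalling genes and 1 of the 4 cell wall genes. Also lower were BGLU40 and GSTU20, 2 of the 7 genes in the group of glucosinolate, glutathione and redox metabolism and beta-glucosidases. The groups of lipids, membrane transport, zinc finger and RING proteins, and aspartyl proteases held 0. Of the 17 unplaced genes 5 were lower, as were 11 of the 50 members without a single gene name. The share was 21.2% over all members and 1.82 percent over all probe sets, and differences between the role groups were not tested.

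The 2 members that were higher in mil4 than in Col after BTH have no gene name here. The probe set 262177_at differed by 1.29 (SE 0.24, adjusted p = 0.00335) and 252827_at by 0.91 (SE 0.15, adjusted p = 0.00147), with mean log2 levels of 11.37 and 11.22 in mil4 and 10.08 and 10.31 in Col. The number of lower members was 14 without Col replicate 1, 13 without mil4 replicate 3 and 6 in a fit of these 8 arrays alone. With the run as a block, which rests on the single run that holds both groups, 4 members were lower and 0 higher, and the calls of AT4G33666 (adjusted p = 0.0533), AT2G39870 (adjusted p = 0.184) and AT3G16560 (adjusted p = 0.102) were lost, in ranges over the alternatives from 4.53e-05, 0.000125 and 0.00052, while AT5G22390 and AT5G48490 kept theirs (adjusted p = 0.03 and 0.0313). At an unadjusted p under 0.05 in the fit of all arrays, 9 members were higher and 41 lower. The share of all probe sets at this unadjusted threshold was not counted, so nothing is read from these counts. Within hybridization days the median difference of the members was -0.22, -0.42 and -0.25, with 61, 91 and 72 of 104 below 0 on days 1, 2 and 3.

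**Figure D4:**
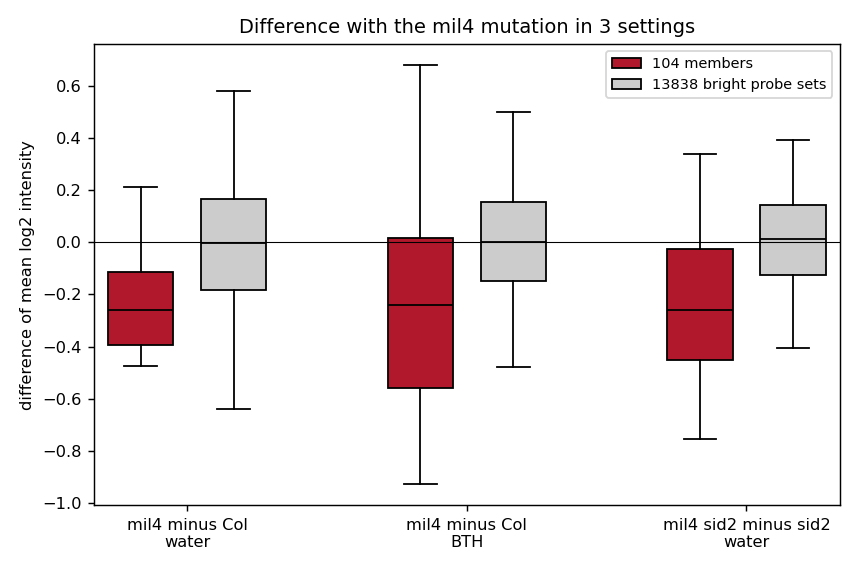
Differences made by mil4 for the 104 members and the 13838 bright probe sets on the log2 scale, in 3 settings from left to right: mil4 minus Col with water, mil4 minus Col with BTH, and mil4 sid2 minus sid2 with water (boxes, quartiles and median; whiskers, 5th to 95th percentile). The member medians of -0.26, -0.24 and -0.26 lie below those of the bright probe sets in all 3 settings.

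With BTH, the members moved in both directions. In Col, 56 were lower and 48 higher than with water, with a median difference of -0.08, and the rule had capped the rise. In mil4, 16 of 104 members were higher with BTH (15.4%, against a percent called higher of 9.67 over all probe sets and 14.7 over bright ones) and 24 were lower (23.1%, against 7.77 over all and 12.3 over bright ones). The mil4 water arrays entered the rule as the higher side of a difference, which favours a fall from them, so nothing is read from the count of lower members. In either direction 40 members (38.5%) and 17.4 percent of all probe sets were called. The share of higher members is close to that of the bright probe sets.

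Among the 7 named members that were higher in mil4 with BTH, AT1G68620 of the hydrolase family stood at log2 levels of 9.85, 8.68, 10.50 and 8.95 with BTH and 5.90, 7.14, 7.28 and 7.73 with water. This was a difference of 2.48 (SE 0.41) or 5.59-fold, with an adjusted p of 0.000229 and no overlap. AT4G23610 had 9.08, 8.85, 9.52 and 8.49 with BTH and 7.39, 7.35, 7.16 and 8.04 with water (difference 1.5, SE 0.23, adjusted p = 9.58e-05). The lipid droplet gene AT1G67360 differed by 1.09 (SE 0.15, adjusted p = 3.04e-05) and the lectin gene AT5G03350, with the levels given above, by 1.05 (SE 0.12, adjusted p = 6.58e-06). For all of these the 4 BTH arrays lay above the 4 water arrays. The MATE gene AT3G26590 was higher by 0.82 (SE 0.15, adjusted p = 0.000742), with 7.97, 7.84, 8.04 and 8.12 with BTH, and the kinase genes AT2G40270 and AT1G70740 were higher by 0.64 and 0.47. The call of AT2G40270 was lost with the module as a block (adjusted p = 0.194) and in a fit of both groups alone (adjusted p = 0.0702), in a range from 0.000301, and that of AT1G70740 without mil4 water replicate 1 (adjusted p = 0.0542), in a range of 0.00131 to 0.162. The immune receptor gene AT5G58120, which did not pass the test, had 9.27, 8.72, 9.29 and 8.51 with BTH and 8.18, 8.64, 7.98 and 8.30 with water.

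Among the 12 named members counted as lower with BTH in mil4, AT5G48490 had log2 levels of 10.60, 10.74, 10.02 and 10.45 with BTH and 11.61, 11.50, 11.83 and 11.70 with water, a difference of -1.21 (SE 0.13) or 2.31-fold. Since the rule asked for high mil4 water arrays, these differences are given as a description. The glucosinolate importer gene GTR1 had 9.37, 9.88, 9.50 and 9.79 with BTH and 10.57, 10.68, 10.51 and 10.87 with water (difference -1.02, SE 0.16), and the kinase gene PTI1-4 had 8.97, 9.11, 8.92 and 8.98 with BTH and 9.90, 9.93, 9.69 and 9.93 with water (difference -0.87, SE 0.15). None of these genes overlapped between treatments. AT4G33666, AT5G22390 and the GDSL-type gene AT3G05180 were lower by 1.13, 0.93 and 0.97, the MATE gene AT1G61890 by 1.05 and AT5G62130 by 0.75. BGLU40, GSTU20, the protease gene AT3G54400 and the GDSL-type gene AT2G04570 were lower by 0.54 to 0.71.

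All BTH arrays of Col and mil4 were stained in modules 2 and 4 and all their water arrays in modules 1 and 3, so treatment and module can be separated only through the arrays of the sid2 genotypes. With the module as a block, 12 members were higher and 11 lower. Within days the median difference of mil4 with BTH and with water was 0.08, -0.25 and 0.05. The BTH differences of the members in mil4 and in Col had a correlation of 0.80 across the 104 members and the same sign for 89 of them (85.58%). Over the 13838 bright probe sets the correlation was 0.69, and the sign was the same for 73.58%. The rule capped the difference in Col and held the water means of mil4 and Col close to each other, so this is a description of the chosen members.

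**Figure D5:**
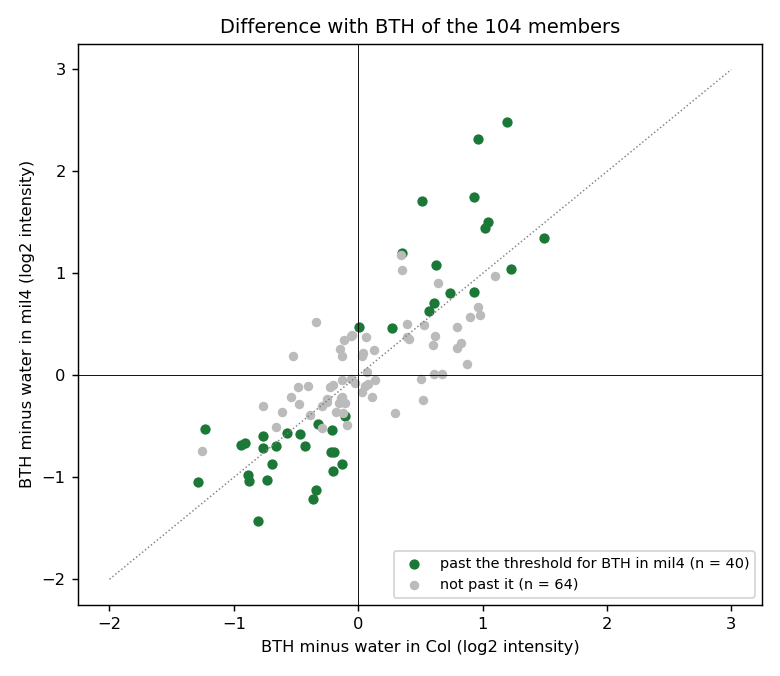
BTH minus water in mil4 (vertical axis) against BTH minus water in Col (horizontal axis) on the log2 scale for the 104 members, with members past the threshold in mil4 marked. AT1G68620 at 2.48 and AT5G48490 at -1.21 on the vertical axis lie off the diagonal, above and below it.

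The interaction of genotype and BTH subtracts the BTH difference in Col, which the rule capped, and uses the mil4 water arrays, which the rule asked to be high, so its calls are no independent test of the members. A difference between the genotypes in the response to BTH was called for 1 member, AT5G48490 (0.962%, against a percent called of 1.01 over all probe sets in either direction and 0.497 lower). Its level was lower by 1.21 with BTH than with water in mil4 and by 0.36 in Col, and the interaction was -0.85 (SE 0.18, adjusted p = 0.02, limma). The call was lost without Col BTH replicate 2 (adjusted p = 0.055) and in a fit of the 4 groups alone (adjusted p = 0.0812), in a range of 0.00216 to 0.0812. No member had a positive interaction past the threshold, and 9 had one at an unadjusted p under 0.05, against 12 with a negative one. How many of all probe sets pass that unadjusted threshold was not counted, so nothing is read from the 9 and 12.

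None of the genes of 20 lists drawn up for the tissue and the hormone is a member, but only 31 of their 231 entries have a probe set with that name. Of 24 genes of the salicylic acid response, 4 were measured by name and 2 of these were lower in sid2 than in Col, against a percent called lower of 6.82 over all probe sets. They were GRX480, a glutaredoxin gene, with -1.10 (SE 0.27, adjusted p = 0.00755), and WRKY53, a transcription factor gene, with -2.09 (SE 0.23, adjusted p = 2.13e-06). Between mil4 sid2 and mil4 these genes differed by -0.49 (adjusted p = 0.335) and 0.65 (adjusted p = 0.11), where 2.82 percent of all probe sets were called lower and 2.75 higher. Of 18 genes of salicylic acid synthesis and signalling 1 was measured, SAG101, a partner of EDS1, and it did not pass the test for sid2 against Col (0.25, adjusted p = 0.532). Touch and cold genes, which respond to handling, included 2 of 4 that were lower in sid2 than in Col, STZ with -2.60 (mean log2 level 8.99 in sid2 and 11.59 in Col) and ORA47 with -3.56 (7.68 in sid2 and 11.25 in Col). In mil4 with water STZ and ORA47 stood at 8.85 and 6.78, nearer to sid2 than to Col. Of the clock genes, 2 of 2 were higher in sid2, GI by 0.63 and COR27 by 4.05, against a percent called higher of 6.64 over all probe sets. The part that handling or the hour of harvest plays in the members' differences was not tested. None of the 12 leaf mesophyll markers has a named probe set, so the labelled tissue was not checked against them.

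On the chromosomes, 19 of the 54 named members lie on chromosome 1, 9 on chromosome 2, 12 on chromosome 3, 5 on chromosome 4 and 9 on chromosome 5. Chromosome 1, which carries ICS1, held 35.2% of the named members and 26.2% of the 7424 named bright probe sets. No named member lay within 100 genes of ICS1 in the gene order. Within 500 genes lay 4 (GSTU20, LPR2, AT1G70740 and AT1G70250), which is 7.4% of named members against 4.1% of named bright probe sets. Within 1000 genes lay 8, which is 14.8% of named members against 6.5% of named bright probe sets. Close neighbours among the named members were AT1G59910 and AT1G59930, 2 genes apart, and AT1G67330 and AT1G67360, 3 genes apart. The members without a single gene name have no known position here, so they may lie anywhere, also near ICS1.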

How the data were processed

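The authors deposited linear intensities of 22810 probe sets on 24 arrays in 1 table. All arrays had a 2% trimmed mean of 500.0 to 500.1, which shows a scaling to 500 per array. The software, background treatment and probe summary are unstated in the labels and headers. Hybridization day, run and module were read per the file headers of the array settings. Groups came from the sample titles. The 64 control probe sets were left out and log2(intensity + 16) was taken, so fold changes of dim probe sets are understated. A linear model with a mean for each of the 6 groups was fitted to all arrays with limma (version 3.58.1, R version 4.3.3), followed by eBayes and Benjamini-Hochberg adjustment across 22746 probe sets. On simulated data, 171 of 200 bright probe sets changed by 1 on the log2 scale were recovered for mil4 against Col after BTH, with 8 false calls. The simulated noise was independent and normal, without differences between runs, days or modules. These numbers therefore do not carry over to arrays that differ by run. Precision is limited by 4 arrays per group.

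Names came from the platform annotation, and RefSeq's TAIR10.1 table gave gene order alone. The rule for named genes allowed every member with a single gene, gave array values for the 14 with the largest weaker sid2 difference and for genes singled out by a test, up to 8 in each direction per comparison, and 2 on each side of the limit. The probe sets given by number, and the genes named by role group outside this rule, were chosen after their values were seen. The members and gene lists were chosen with earlier results of these data known. Same-numbered replicates did not deviate together in the tested pairs of groups (correlations of -0.066 to 0.048 for mil4 with BTH and with water, and 0.002 to 0.168 for mil4 and Col with BTH), so numbers were not used as pairs there. The numbers did pair Col with BTH and Col with water, with correlations of 0.157 to 0.312 in 4 of 4 pairs and the same hybridization run for each number, and this pair enters the interaction, whose counts the replicate block left the same. The planned search for promoter motifs was not run, and no sequences were used here. Alternatives were other pseudocounts, quantile normalization, a brightness filter, eBayes with trend and robust settings, array weights, blocks for replicate, day, run and module, fits of the compared groups alone, and leaving out each replicate.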

Additional observations from a re-analysis of the deposited data

Results flagged for a closer look

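In 5 of 90 groups of 4 values tested, an array stood apart from the other 3 by more than Dixon's 95% critical value allows, where chance gives about 5%. In mil4 with BTH, AT1G65490 had a log2 level of 11.26 in replicate 4 against 11.36 to 11.38 in the others. The lipase gene AT1G28600 had 10.38 in replicate 3 of mil4 with BTH against 10.06 to 10.11. In mil4 sid2, AT5G11650 had 7.73 in replicate 3 against 7.12 to 7.16, which stays below the lowest mil4 water array at 8.11. The mean level of the members in mil4 sid2 was -0.86 in replicate 1 against -0.75 to -0.73. In Col with water the lectin gene AT5G03350 had 12.54 in replicate 2 against 12.81 to 12.84, still above all sid2 arrays.

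The response to BTH of the DIR1-like gene AT5G48490 differed between mil4 and Col by -0.85 on the log2 scale (limma's interaction term, adjusted p = 0.02), with a fall on BTH in mil4 and a smaller difference in Col. It was the single member past the threshold, in a contrast that holds arrays the rule used.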

How the results depend on the processing

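All sid2 and mil4 sid2 arrays share a hybridization day that no control array has, so no alternative separates that genotype from the day. Membership stayed within 1.5 times the main count under each alternative run: 103 members with a pseudocount of 1 (88 shared with the 104), 71 with 64 (66 shared), 124 after quantile normalization (100 shared), 99 to 123 without a replicate number and 94 to 119 without a single array. For mil4 against Col after BTH, the counts of 2 higher and 22 lower members became 6 higher with a pseudocount of 64, 5 higher with array weights, 0 higher and 4 lower with the run as a block, which rests on the single run that holds both groups, and 1 higher and 6 lower in a fit of both groups alone, with fewer arrays to estimate the spread. Without single arrays they were 2 to 3 higher and 13 to 21 lower. For BTH in mil4, the 16 higher and 24 lower became 11 lower with the module as a block and 15 lower in a fit of both groups alone, and without single arrays 13 to 17 higher and 17 to 24 lower. The interaction count of 0 higher became 1 with a pseudocount of 64, with the brighter probe sets alone, with trend and robust eBayes and with array weights, and its count of 1 lower became 2 with a pseudocount of 64, 2 after quantile normalization, 2 with the brighter probe sets alone, 3 with trend and robust eBayes and 0 in a fit of the 4 groups alone, while without single arrays it was 0 to 1 higher and 0 to 2 lower. Where no construction is named, the cause was not tested. With the replicate number as a block, the counts were 16 and 24 for BTH in mil4, 2 and 20 for mil4 against Col, and 0 and 1 for the interaction. Of 462 values of the 24 named results under alternatives, 417 kept their call, 45 lost it and 0 reversed, and 11 results kept it under all of them. Low signal limits the dim members, of which AT1G68620 and AT3G26590 lie near a log2 level of 6 in the sid2 genotypes.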
